A study of Homo sapiens with 11 samples.

Results

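The protein parts of the cytosolic ribosome were followed after a miR-365a-3p mimic was brought into 2 human cancer cell lines. A row of the expression table counted as a cytosolic ribosomal protein gene when its symbol was RPLP0, RPLP1, RPLP2 or RPSA, or had the form RPL or RPS with a number and at most a short ending. RPS6 kinases, RPS4Y and symbols of pseudogenes were left out. The rule used symbols only and no measured value, and 87 of 31325 rows met it. Of these, 77 are the core genes, 46 for the large and 31 for the small ribosomal subunit, and 7 are paralogs (RPL3L, RPL7L1, RPL10L, RPL22L1, RPL26L1, RPL39L and RPS27L). The other 3 rows, RPL13L, RPL14L and RPS26L, carry older symbols that now belong to pseudogenes.

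The arrays were Illumina BeadChips, which measure cRNA made from total RNA with probes carried on beads. MDA-MB-231, a breast cancer line, had 3 arrays with miR-365a-3p and 3 with a control miRNA, and SKOV3, an ovarian cancer line that the methods call SKOV3.ip1, had 3 and 2, which makes 11 arrays in 4 groups. The sample labels place all 4 groups at 48 h after transfection, and the description of the series gives 24 h. Each array pools the RNA of a culture, so a change in the RNA of each cell and a change in which cells were present cannot be told apart, and nothing in the labels says that replicates were separate cultures, so p-values measure the spread between arrays, which may be technical. ERBB2, EPCAM and PAX8 were called higher in the SKOV3 controls, with ERBB2 higher by 3.26 on the log2 scale, whereas KRT7 differed by 0.27 (adjusted p = 0.245). The 4 markers chosen for MDA-MB-231 (SPARC, S100A4, MMP1 and SPOCK1) went against the label and were all called higher in the SKOV3 controls. They were higher there by 1.23, 5.62, 4.55 and 0.72, so that S100A4 and MMP1 differed more than ERBB2. HLA-DRA and CD74, picked after their values were seen, were called higher in the MDA-MB-231 controls (differences of -2.67 and -1.81). The groups are named as labelled.

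Ribosomes read mRNA with the small subunit and join amino acids with the large one, and each cytosolic ribosome carries a single copy of nearly every ribosomal protein. The proteins are made in the cytosol, carried to the nucleolus and built into precursors there with ribosomal RNA. Most of their mRNAs begin with a stretch of C and T bases, the 5′ terminal oligopyrimidine (TOP) tract, through which their translation follows growth signals. A miRNA guides argonaute to mRNAs that pair with its seed, which usually lowers those mRNAs.

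The sequence of the transfected miRNA defines the treatment, and it is shown with its seed (bases 2 to 8) in capitals. In RefSeq on GRCh38.p14, the same mature sequence of 22 bases lies at chr16:14309340-14309361 in MIR365A and at chr17:31575478-31575499 in MIR365B, both on the plus strand.
miR-365a-3p: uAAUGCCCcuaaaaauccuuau

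The next sequences show the start of the genes whose differences are described first, to let the presence of a TOP tract be read beside the values. Each window holds 15 bases before the annotated start and the first 15 bases from it, taken from RefSeq (GRCh38.p14) and written 5′ to 3′ on the gene's strand. Capitals mark a tract, here a C at the annotated start followed without a break by at least 4 bases that are C or T. RPL29 (chr3:51995881-51995910, minus strand), RPL34 (chr4:108620561-108620590, plus strand) and RPS21 (chr20:62387088-62387117, plus strand) had such a tract, and RPS7 (chr2:3575245-3575274, plus strand) had none at its annotated start. A further annotated start of RPL34 (chr4:108620614-108620643, plus strand), not shown, had none.
RPL29: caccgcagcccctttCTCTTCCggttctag
RPL34: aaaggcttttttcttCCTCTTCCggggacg
RPS21: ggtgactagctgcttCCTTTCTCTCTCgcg
RPS7: gtttccgccctcctcctcgcgctgtttccg

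Among the genes that fell, RPL28 (chr19:55385917-55385946, plus strand) and RPS23 (chr5:82278340-82278369, minus strand) had a tract as well, and RPL7L1 (chr6:42879601-42879630, plus strand) had none.
RPL28: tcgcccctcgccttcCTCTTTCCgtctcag
RPS23: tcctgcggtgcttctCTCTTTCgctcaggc
RPL7L1: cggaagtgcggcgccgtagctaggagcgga

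Of the 67 ribosomal protein genes with a promoter entry, 47 (70.1%) had a tract at an annotated start, against 1404 of 27305 genes in the table (5.14%). With the tract allowed to begin up to 10 bases to either side of the start, the counts were 58 of 67 (86.6%) and 38.4% of all genes. The sequence CCGGAAG, of a kind that ETS family factors bind, searched on both strands over 300 bases from 250 before the start to 50 after it, was in the windows of 24 of 67 (35.8%) and of 12.2% of all genes. A match of letters is a description and not a mapped start or a bound site.

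The first comparison asked how the ribosomal protein mRNAs stood with miR-365a-3p against control miRNA in MDA-MB-231 cells. A small set of their rows rose strongly in both lines, led by RPL29, RPL34, RPS7 and RPS21. RPL7L1 and RPL28 fell in both, and most of the others moved little. In MDA-MB-231, RPL29, RPL34, RPS7 and RPS21 had mean control signals of 8.81, 8.21, 8.71 and 9.27. The median of all 87 rows on those arrays was 12.26 to 12.58. On the SKOV3 controls these genes had 8.29, 8.31, 8.85 and 8.67, beside medians of 12.10 and 12.13. Whether these rows read the main mRNA of each gene was not tested. In MDA-MB-231 cells, 32 of the 87 rows (36.8%) were called higher at an adjusted p under 0.05 (limma, Benjamini-Hochberg over all rows), against 14.4% of all rows. Only 4 rows (4.6%) were called lower, against 11.7% of all rows. The log2 differences of the 87 rows ran from -1.56 to 1.69 with a median of 0.25, beside a median of 0.0064 over all rows, and 71 of the 87 lay above 0. Over all rows, 0 lay between percentiles 44.5 and 45.

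Much of the table lies near the floor of the arrays, where a smaller share of rows was called than above it. The counts were therefore also read among rows with a higher mean. Of the 6853 rows with a mean above 8 over all arrays, 39.0% were called higher in MDA-MB-231 and 26.2% lower. The 80 ribosomal protein rows among them had 36.2% higher and 3.75% lower. The median difference was 0.27 for these 80 rows and 0.17 for all 6853. The rows behind these shares differ in signal, because 5992 of the 6853 had a mean of 8 to 11, while 36 of the 80 lay from 12 to 13 and 22 above 13. From 8 to 11, 60% of the 15 ribosomal protein rows were higher in MDA-MB-231, against 39.4% of all rows of that band. From 11 to 12 it was 28.6% of 7 rows against 42.0%, from 12 to 13 it was 30.6% of 36 against 32.5%, and above 13 it was 31.8% of 22 against 24.6%. The share that rose was thus above, below or near that of all rows by band, while the share that fell was below it in each band of this line, with 6.67% against 27.1%, 14.3% against 22.1%, 0% against 20.4% and 4.55% against 11.5%.

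In SKOV3 cells, 18 of the 87 rows (20.7%) were called higher, against 7.25% of all rows, and 3 (3.45%) were called lower, against 7.11%. The median log2 difference was 0.21, beside 0.0066 over all rows, and 69 of the 87 rows lay above 0. Over all rows, 0 lay between percentiles 44 and 44.5. The median was 0.22 for the 80 ribosomal protein rows with a mean above 8 and 0.15 for all such rows. Among the rows with a mean above 8, 21.2% of the 80 ribosomal protein rows were higher and 2.5% lower, beside 23.4% and 15.3% of all such rows. By band, 53.3% of the rows from 8 to 11 were higher against 23.7% of all rows, 14.3% against 27.4% from 11 to 12, 16.7% against 17.9% from 12 to 13, and 9.09% against 8.46% above 13. The shares called lower were 0% against 15.9%, 14.3% against 14.2%, 2.78% against 8.39% and 0% against 4.62%. From 11 to 12, where 1 of 7 rows was called, the share was thus not below that of all rows. Shares by band were computed on the quantile-normalized scale only. The SKOV3 calls rest on 2 control arrays. Without either of them fewer rows were called higher, both among the 87 and over all rows. Without miR-365a-3p replicate 1, 11 of the 87 were called higher, beside 5.75% of all rows. The 3 called lower became 0 without control replicate 2 and 1 without any other SKOV3 array or without MDA-MB-231 miR-365a-3p replicate 3 or control replicate 3.

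Both lines called 12 rows higher (13.8%, against 5.76% of all rows), namely RPL13, RPL26, RPL26L1, RPL29, RPL30, RPL31, RPL34, RPL35A, RPL36A, RPS7, RPS21 and RPS27L. Both called 2 rows lower (2.3%, against 5.39%), RPL28 and RPL7L1. By limma, 0 rows had opposite calls (0.0734% of all rows had). Among rows with a mean above 8, 13.8% of the ribosomal protein rows and 21.0% of all rows were higher in both lines, and 1.25% and 13.4% were lower in both. Every miR-365a-3p array lay above every control array in both lines for 26 of the 87 rows (29.9%, against 13.3% of all rows), and below for 3 (3.45%, against 10.3%). Fewer rows were higher in both lines without either SKOV3 control array, and 7 were without SKOV3 miR-365a-3p replicate 1. The share of all rows called in both lines was not computed for these fits. The count lower in both was 0 without SKOV3 control replicate 2, and 1 without any other SKOV3 array, MDA-MB-231 miR-365a-3p replicate 1 or 3, or MDA-MB-231 control replicate 2 or 3.

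**Figure D1:**
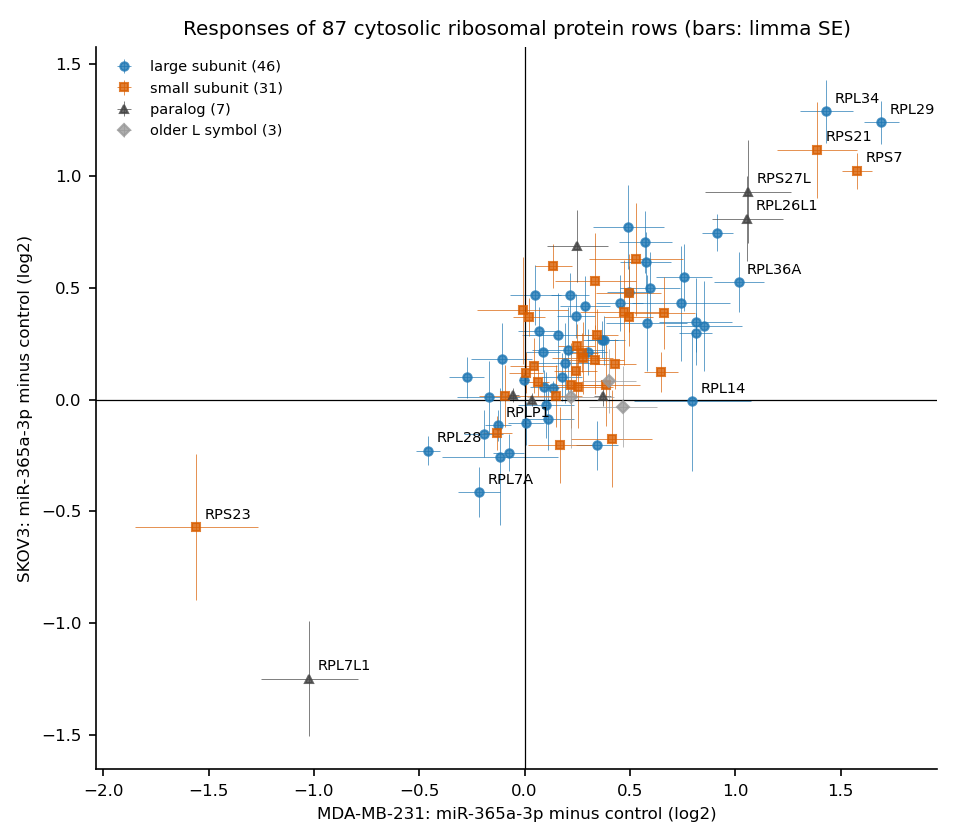
Log2 difference of miR-365a-3p minus control in MDA-MB-231 cells (horizontal axis) and in SKOV3 cells (vertical axis) for the 87 ribosomal protein rows, with limma standard errors as bars and the kind of row as symbol. RPL29, RPL34, RPS7 and RPS21 lie above 1 on both axes, RPL7L1 lies below -1 on both, and most rows lie between 0 and 1.

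Across the 87 rows, the differences in the 2 lines had Pearson's r = 0.81 and Spearman's rho = 0.68, a description over rows that share the same arrays. The 12 rows called higher in both included 4, RPL13, RPL29, RPL34 and RPS7, that kept both calls under every one of the 19 alternatives, each array left out in turn included. In MDA-MB-231 cells, 18 of the 32 rows called higher and 3 of the 4 called lower, RPL7L1, RPL28 and RPS23, kept their call under all alternatives. In SKOV3 cells, 5 of the 18 called higher did, RPL13, RPL29, RPL34 and RPS7 among them, and each of the others lost its call with at least one of the arrays left out.

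RPL29, a large subunit protein also described as a heparin-binding protein at the cell surface, had the largest rise by the mean of both lines. In MDA-MB-231 cells its log2 signal was 8.95, 8.83 and 8.65 on the control arrays and 10.62, 10.47 and 10.42 with miR-365a-3p. On the SKOV3 side it was 8.38 and 8.20 on the control arrays and 9.53, 9.48 and 9.58 with miR-365a-3p. The groups did not overlap in either line. The difference was 1.69 ± 0.0844 (SE, adjusted p = 6.88e-06), a 3.24-fold change, in MDA-MB-231 and 1.24 ± 0.0943 (adjusted p = 9.07e-05), a 2.36-fold change, in SKOV3 cells.

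RPL34, another large subunit protein, went from 8.28, 8.35 and 8.005 to 9.88, 9.54 and 9.50 in MDA-MB-231 cells. In the SKOV3 groups it went from 8.37 and 8.25 to 9.77, 9.54 and 9.50, so that both lines began and ended at nearly the same signal. The rises were 1.43 ± 0.126 (adjusted p = 9.17e-05) and 1.29 ± 0.141 (adjusted p = 0.000601), or 2.70-fold and 2.44-fold.

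RPS7, a small subunit protein that also binds MDM2 and is mutated in some cases of Diamond-Blackfan anaemia, went from 8.73, 8.75 and 8.65 to 10.38, 10.29 and 10.20 in MDA-MB-231 cells. Its SKOV3 arrays read 8.97 and 8.72 with control and 9.89, 9.93 and 9.79 with miR-365a-3p. The control arrays of the lines lay close together and the miR-365a-3p arrays of SKOV3 lay below all 3 of MDA-MB-231. The rises were 1.58 ± 0.0718 (adjusted p = 4.21e-06) and 1.02 ± 0.0803 (adjusted p = 0.000107), or 2.99-fold and 2.03-fold.

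RPS21, a small protein of the small subunit, read 9.73, 9.05 and 9.03 with control and 10.87, 10.50 and 10.60 with miR-365a-3p in MDA-MB-231 cells. The SKOV3 arrays read 8.65 and 8.68 against 9.98, 9.58 and 9.80. Control replicate 1 of MDA-MB-231 stood apart from the other two, and all miR-365a-3p arrays were still above it. The rises were 1.39 ± 0.191 (adjusted p = 0.000878) and 1.12 ± 0.214 (adjusted p = 0.00889). The SKOV3 call was lost without control replicate 1 (adjusted p = 0.0661) or control replicate 2 (adjusted p = 0.0692).

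RPL13, named after its values were seen because it kept its calls throughout, is a large subunit protein whose mRNA rose by 0.91 ± 0.0738 (adjusted p = 6.05e-05) in MDA-MB-231 and 0.75 ± 0.0825 (adjusted p = 0.000632) in SKOV3 cells. For RPL13, RPL29, RPL34, RPS7 and RPS21, the exact two-sided permutation test of the treatment within lines gave p = 0.005, the smallest that its 200 arrangements can give, unadjusted. It gave this value for 23 of the 87 rows. The test was run on these 87 rows only, so no share of all rows can be set beside this count.

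**Figure D2:**
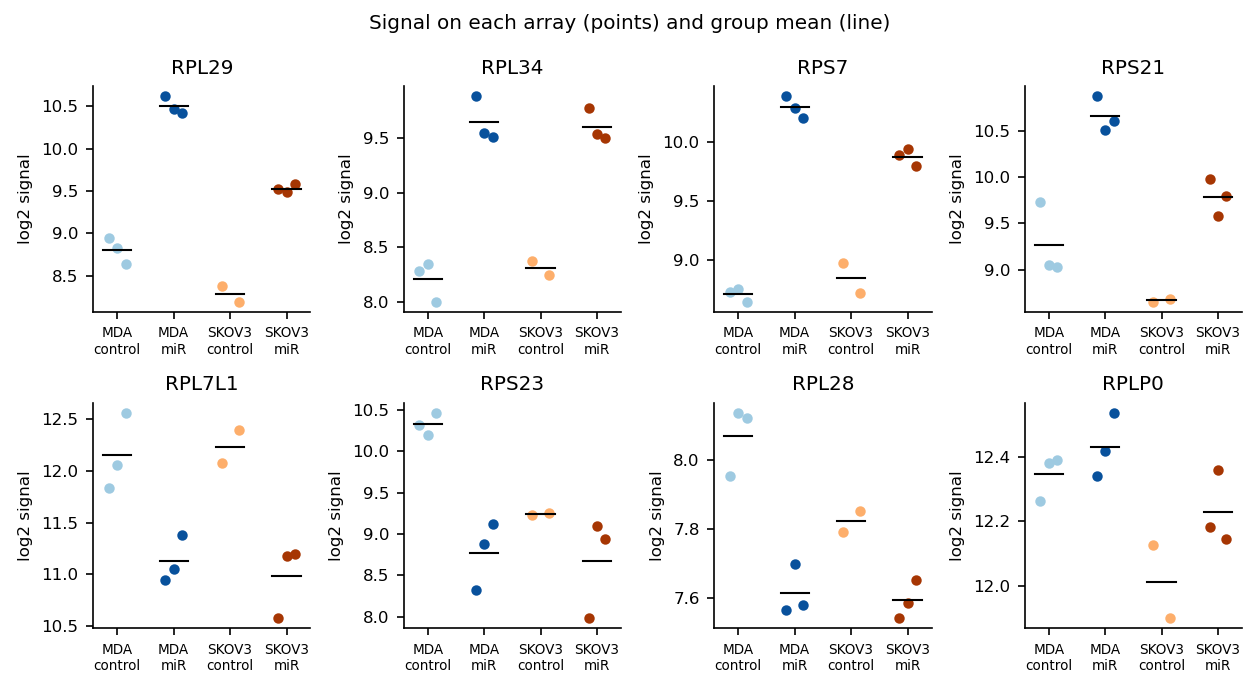
Log2 signal of 8 ribosomal protein genes on each of the 11 arrays, with points for arrays and lines for group means, and each panel on its own scale. RPL29, RPL34, RPS7 and RPS21 are higher with miR-365a-3p in both lines without overlap, RPL7L1, RPS23 and RPL28 are lower without overlap, and RPLP0 moves by 0.09 and 0.21.

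The genes that fell were fewer. RPL7L1 is a nucleolar relative of RPL7. It read 11.84, 12.06 and 12.56 with control and 10.95, 11.06 and 11.38 with miR-365a-3p in MDA-MB-231 cells. SKOV3 arrays read 12.07 and 12.40 against 10.58, 11.18 and 11.20. It fell by 1.02 (SE 0.23, adjusted p = 0.0103) and by 1.25 (SE 0.257, adjusted p = 0.0125) on the log2 scale, with no overlap in either line. The SKOV3 call was lost without control replicate 2 (adjusted p = 0.125) and in a fit of SKOV3 alone (adjusted p = 0.0508).

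RPS23, a protein of the decoding centre of the small subunit, read 10.33, 10.20 and 10.47 with control and 8.32, 8.88 and 9.12 with miR-365a-3p in MDA-MB-231 cells. There it fell by 1.56 on the log2 scale (SE 0.293, adjusted p = 0.0043). Its SKOV3 arrays read 9.24 and 9.25 with control and 7.98, 9.10 and 8.94 with miR-365a-3p. The SKOV3 difference of -0.57 ± 0.328 was not called (adjusted p = 0.365), and replicate 1 lay far below the other two, although all 3 lay under the controls. The difference between the lines, 0.99 ± 0.440, was not called either (adjusted p = 0.401).

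RPL28, a large subunit protein, read 7.95, 8.14 and 8.12 with control and 7.56, 7.70 and 7.58 with miR-365a-3p in MDA-MB-231, and 7.79 and 7.85 against 7.54, 7.59 and 7.65 in SKOV3 cells. All of these signals lie close to the median of all rows, 7.38. It fell by 0.46 (SE 0.0573, adjusted p = 0.000545) and by 0.23 (SE 0.0641, adjusted p = 0.046). The SKOV3 call was lost when any SKOV3 array was left out, and also without MDA-MB-231 miR-365a-3p replicate 1 or 3 or control replicate 2 or 3.

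RPL7A, a large subunit protein, fell in SKOV3 cells by 0.41 (SE 0.112, adjusted p = 0.0401), where its arrays read 12.14 and 12.17 with control and 11.79, 11.68 and 11.76 with miR-365a-3p. In MDA-MB-231 cells its difference was -0.22 (adjusted p = 0.175), which was 0.01 with the deposited values and 0.05 with median centring. The SKOV3 call was lost without any SKOV3 array and without replicate 3 of either MDA-MB-231 group. It was also lost with the deposited values (-0.26, adjusted p = 0.191), with median centring (-0.23, adjusted p = 0.248) and with trend and robust moderation (adjusted p = 0.103), while the replicate block called RPL7A lower in MDA-MB-231 (adjusted p = 0.0228). RPL6, the fourth row called lower in MDA-MB-231 and named for that count, fell by 0.28 (adjusted p = 0.038) and differed by 0.10 in SKOV3 cells (adjusted p = 0.652), and its call was lost in 7 of the 11 fits that left out an array. The direction of RPL6 in MDA-MB-231 turned with the scaling, to 0.09 with the deposited values (adjusted p = 0.663) and 0.12 with median centring (adjusted p = 0.455). RPL22 and RPL3, which complete the 6 lowest rows by the mean of both lines, were not called. RPL22 differed by -0.12 (adjusted p = 0.851) and -0.26 (adjusted p = 0.757), and RPL3, a protein near the peptidyl transferase centre, by -0.19 (adjusted p = 0.193) and -0.15 (adjusted p = 0.481). RPL3 was called lower in MDA-MB-231 with cyclic loess (-0.44, adjusted p = 0.00982), and its differences were 0.08 and 0.09 with the deposited values.

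By subunit, 19 of the 46 large subunit core genes (41.3%) were higher and 2 (4.35%) lower in MDA-MB-231 cells, with a median of 0.23, and 11 (23.9%) were higher and 2 (4.35%) lower in SKOV3 cells, with a median of 0.27. Of the 31 small subunit core genes, 9 (29.0%) were higher and 1 (3.23%) lower in MDA-MB-231 cells (median 0.27), and 4 (12.9%) were higher in SKOV3 cells (median 0.18). The shares of all rows were 14.4% higher and 11.7% lower in MDA-MB-231 and 7.25% and 7.11% in SKOV3, and those of rows with a mean above 8 were 39.0% and 26.2%, and 23.4% and 15.3%. The shares of the lists that follow are set beside these, although most ribosomal protein rows lie in bands of higher signal, whose shares are given above. Both subunits thus shared a median above 0 in both lines, as did all rows with a mean above 8 (0.17 and 0.15).

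The proteins of the stalk, RPLP0, RPLP1 and RPLP2, recruit translation factors to the large subunit, and RPSA sits on the small subunit and also serves as a laminin receptor. By limma, 0 of these 4 were called in MDA-MB-231, and none had an unadjusted p under 0.05 there, while 2 of the 4, RPLP0 and RPSA, were called higher with the deposited values and with median centring. RPLP0, whose mRNA is a common reference in quantitative PCR, read 12.26, 12.38 and 12.39 against 12.34, 12.42 and 12.54 in MDA-MB-231 and 12.13 and 11.90 against 12.18, 12.36 and 12.15 in SKOV3 cells. Its groups overlapped in the first line and barely separated in the second, with differences of 0.09 (adjusted p = 0.557) and 0.21 (adjusted p = 0.175). RPLP1 differed by -0.13 (adjusted p = 0.198) and -0.11 (adjusted p = 0.4), and RPLP2 by 0.0059 (adjusted p = 0.979) and -0.11 (adjusted p = 0.638). RPLP1 turned to 0.22 and 0.08 with the deposited values, neither called. RPSA rose in SKOV3 cells by 0.37 ± 0.0845 (adjusted p = 0.0199), from 11.86 and 11.92 to 12.33, 12.20 and 12.25, and differed by 0.02 in MDA-MB-231 cells (adjusted p = 0.899). Its SKOV3 call was lost without either control array, without miR-365a-3p replicate 1, with the replicate block (adjusted p = 0.056), with trend and robust moderation (adjusted p = 0.123) and with cyclic loess (0.21, adjusted p = 0.31). In MDA-MB-231, RPSA was called higher with the deposited values (0.31, adjusted p = 0.0494) and with median centring (0.35, adjusted p = 0.033). With the deposited values RPLP0 rose in both lines, by 0.36 (adjusted p = 0.00541) and 0.34 (adjusted p = 0.0176). The median of these 4 genes, 0.01 and 0.05, turned to -0.16 and -0.09 with cyclic loess.

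The paralogs were set beside their canonical genes, whose mRNAs often begin differently. RPS27 (chr1:153990747-153990776, plus strand), RPL26 (chr17:8383179-8383208, minus strand) and RPL22 (chr1:6199581-6199610, minus strand) start with a tract. RPS27L (chr15:63157463-63157492, minus strand) and RPL26L1 (chr5:172958714-172958743, plus strand) have none at the start shown. RPL22L1 (chr3:170870181-170870210, minus strand) has a tract of 6 bases, beside 7 in RPL22.
RPS27: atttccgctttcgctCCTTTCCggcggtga
RPS27L: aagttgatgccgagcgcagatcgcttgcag
RPL26: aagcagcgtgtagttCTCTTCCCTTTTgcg
RPL26L1: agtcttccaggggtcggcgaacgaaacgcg
RPL22: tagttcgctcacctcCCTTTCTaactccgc
RPL22L1: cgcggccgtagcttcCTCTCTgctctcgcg

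RPS27L, a paralog of RPS27, read 10.06, 9.70 and 9.37 against 11.12, 10.61 and 10.58 in MDA-MB-231 and 9.10 and 8.79 against 10.09, 9.77 and 9.77 in SKOV3 cells. It rose by 1.06 ± 0.205 (adjusted p = 0.00486) and by 0.93 ± 0.229 (adjusted p = 0.0277). Its canonical partner RPS27 differed by 0.53 (adjusted p = 0.134) and 0.63 (adjusted p = 0.156), neither called. The SKOV3 call of RPS27L was lost without either control array (adjusted p = 0.0761 and 0.221), without miR-365a-3p replicate 1 or with cyclic loess (adjusted p = 0.0642). RPS27 was called higher in MDA-MB-231 with the deposited values (0.85, adjusted p = 0.0327).

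RPL26L1, whose protein is nearly identical to RPL26, read 9.25, 9.60 and 9.17 against 10.64, 10.38 and 10.17 in MDA-MB-231 and 9.28 and 9.27 against 10.38, 9.84 and 10.03 in SKOV3 cells. It rose by 1.06 ± 0.17 (adjusted p = 0.00193) and 0.81 ± 0.19 (adjusted p = 0.0225). RPL26, a large subunit protein, rose by 0.76 ± 0.134 (adjusted p = 0.0031) and 0.55 ± 0.149 (adjusted p = 0.0419). Whether the probes keep the 2 genes apart was not tested. In SKOV3 cells, the RPL26L1 call was lost without either control array or miR-365a-3p replicate 1, and the RPL26 call in 9 of the 11 fits that left out an array, every SKOV3 array among them. Cyclic loess also lost the SKOV3 calls of RPL26L1 (adjusted p = 0.074) and RPL26 (adjusted p = 0.0506), the deposited values that of RPL26L1 (adjusted p = 0.054), and the replicate block that of RPL26.

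RPL36A rose by 1.02 ± 0.12 (adjusted p = 0.000405) in MDA-MB-231 and 0.52 ± 0.134 (adjusted p = 0.032) in SKOV3 cells, although its control signals, 7.42 to 7.72, lie near the floor. RPL36AL, an expressed copy of RPL36A outside the rule, differed by 0.35 (adjusted p = 0.0967) and 0.38 (adjusted p = 0.146), and was called higher in MDA-MB-231 with the deposited values (0.62, adjusted p = 0.0153). RPL39, which lies at the exit tunnel, rose in SKOV3 cells by 0.77 ± 0.187 (adjusted p = 0.0262), and its paralog RPL39L, best known from testis, rose there by 0.69 ± 0.161 (adjusted p = 0.0218). In MDA-MB-231 cells they differed by 0.49 (adjusted p = 0.063) and 0.25 (adjusted p = 0.285). The SKOV3 calls of RPL36A, RPL39 and RPL39L were all lost without control replicate 1, control replicate 2 or miR-365a-3p replicate 1, and those of RPL36A and RPL39 also without miR-365a-3p replicate 2. The calls of RPL39 and RPL39L were lost with cyclic loess (adjusted p = 0.0716 and 0.078) and the replicate block as well, and RPL39 was called higher in MDA-MB-231 with the deposited values (0.81, adjusted p = 0.0103).

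RPL7, the canonical partner of RPL7L1, rose by 0.81 ± 0.173 in MDA-MB-231 cells (adjusted p = 0.00775), where RPL7L1 fell. In SKOV3 cells it differed by 0.35 (adjusted p = 0.34). RPL3L, a muscle form of RPL3, and RPL10L, known from testis, stayed within 0.5 of the median of all rows in all 4 groups. The same held for RPL10 and RPL37, whose mRNAs most cells carry, so that their rows give little information on these mRNAs. RPL10 differed by -0.0019 (adjusted p = 0.975) and 0.09 (adjusted p = 0.0659). RPL37 was called higher in MDA-MB-231 cells, by 0.14 (adjusted p = 0.00705), but it was -0.04 with the deposited values (adjusted p = 0.48) and -0.01 with median centring (adjusted p = 0.846), and the replicate block lost the call too.

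Genes mutated in Diamond-Blackfan anaemia, an inherited failure of red cell production, gave a subset known from medicine. Of the 18, all with a mean above 8, 5 (27.8%) rose in MDA-MB-231 cells (RPL11, RPL26, RPL31, RPL35A and RPS7) and 7 (38.9%) in SKOV3 cells (RPL18, RPL26, RPL31, RPL35, RPL35A and RPS7 among them), with medians of 0.31 and 0.41. The first share lies below the 39.0% of all rows with a mean above 8 and the second above the 23.4%. From 12 to 13, 32.5% and 17.9% of all rows rose in the 2 lines, and above 13, 24.6% and 8.46%. The first share lies between those of these bands and the second above both. The list was not split by band. The counts were 13 and 10 with the deposited values, and 4 and 3 with cyclic loess. RPL11 and RPL5, which form the 5S particle that holds MDM2, were both measured well above the floor. RPL11 rose by 0.37 ± 0.0739 in MDA-MB-231 cells (adjusted p = 0.00588) and differed by 0.27 in SKOV3 cells (adjusted p = 0.0676), and RPL5 differed by 0.07 (adjusted p = 0.736) and 0.31 (adjusted p = 0.101). The RPL11 call was lost with cyclic loess (0.07, adjusted p = 0.55), and RPL11 and RPL5 were both called higher in both lines with the deposited values. In SKOV3 cells the calls of RPL18, RPL31 and RPL35 were lost with cyclic loess, and that of RPL18 with the replicate block too.

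Of 9 ribosomal protein genes in use as reference genes, 3 (33.3%) rose in MDA-MB-231 and 1 (11.1%) in SKOV3 cells, with medians of 0.34 and 0.29. All have a mean above 8, where 39.0% and 23.4% of all rows rose. From 12 to 13 it was 32.5% and 17.9% of all rows, and above 13, 24.6% and 8.46%. These genes were not split by band. On the scale of the deposited values 7 and 3 of the 9 rose, with medians of 0.65 and 0.36, and with cyclic loess 1 and 0 did (limma). RPL30 rose in both, by 0.58 (adjusted p = 0.00738) and 0.61 (adjusted p = 0.0171). RPL13A rose by 0.35 in MDA-MB-231 cells (adjusted p = 0.0312) and differed by -0.21 in SKOV3 cells (adjusted p = 0.324). The MDA-MB-231 call of RPL13A was lost without any MDA-MB-231 miR-365a-3p array, MDA-MB-231 control replicate 1 or 3, or either SKOV3 control, and the SKOV3 call of RPL30 without SKOV3 control replicate 2, and cyclic loess lost both (adjusted p = 0.135 and 0.0692). RPL19 differed by 0.11 (adjusted p = 0.648) and -0.09 (adjusted p = 0.828), and with the deposited values by 0.47 (adjusted p = 0.00481) and 0.12 (adjusted p = 0.542).

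The size of the differences varied with the signal of the row. The 16 rows with a mean above the floor and up to 11 had median differences of 0.88 in MDA-MB-231 and 0.61 in SKOV3 cells. These include RPL13, RPL29, RPL34, RPS7, RPS21, RPS27L and RPL26L1. The 36 rows from 12 to 13 had medians of 0.27 and 0.30, and the 22 rows above 13, near the upper end of the arrays, had 0.14 and 0.12. Over all rows of the table with a mean above 8 and up to 11, the medians were 0.15 and 0.14, and over all rows above 13 they were 0.11 and 0.11. The part of the upper limit of the scale in these values was not tested.

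The values also moved with the scaling of the arrays. The deposited columns did not share a distribution: the 99th percentile was 12.51 to 12.64 on the MDA-MB-231 miR-365a-3p arrays against 12.28 to 12.32 on their controls, while the 75th percentile was 7.56 to 7.65 against 7.86 to 7.93. Before quantile normalization, the median signal of the 87 rows was 13.01, 12.75 and 12.93 with miR-365a-3p and 12.50, 12.30 and 12.14 with control in MDA-MB-231. In SKOV3 cells it was 12.49, 12.44 and 12.51 against 12.02 and 12.01. After normalization it was 12.70, 12.60 and 12.72 against 12.58, 12.38 and 12.26, and 12.41, 12.44 and 12.50 against 12.13 and 12.10. The miR-365a-3p arrays lay above all controls of their line on both scales, by a smaller distance after normalization.

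With the deposited values, the median difference was 0.56 in MDA-MB-231 cells with 53 rows higher and 3 lower, and 0.36 in SKOV3 cells with 30 higher and 2 lower. On that scale 7.26% of all rows were higher and 17.9% lower in MDA-MB-231, and 3.83% and 14.0% in SKOV3 cells. After median centring of each array the median was 0.59 with 53 and 3 rows, and 0.40 with 35 and 2, beside 10.8% and 15.6%, and 5.52% and 11.6%, of all rows. With cyclic loess it was 0.15 with 22 higher and 8 lower in MDA-MB-231, beside 12.4% and 11.9% of all rows, and 0.05 with 8 higher and 4 lower in SKOV3 cells, beside 6.3% and 8.92%. The median thus stayed above 0 under all 4 scalings in both lines. RPL29, RPL34, RPS7 and RPL13 kept their calls under each.

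**Figure D3:**
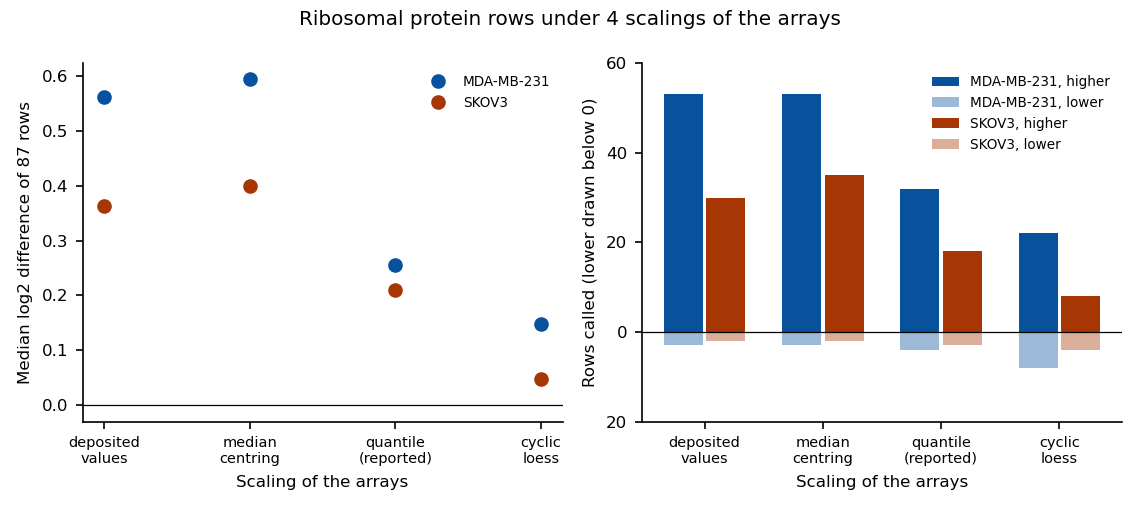
Median log2 difference of the 87 ribosomal protein rows (left) and number of rows called higher or, drawn below 0, lower (right) under 4 scalings of the arrays in MDA-MB-231 and SKOV3 cells. The medians run from 0.59 and 0.40 with median centring down to 0.15 and 0.05 with cyclic loess.

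The second question was whether the response of a gene differed between the lines. For this contrast, the SKOV3 response minus the MDA-MB-231 response, 2 of the 87 rows (2.3%, against 1.24% of all rows) were called lower and 0 higher by limma, against 1.3% of all rows. At an unadjusted p under 0.05, 12 rows (13.8%) differed, near the 12.8% of all rows, and the median was -0.09. The first of the 2 was RPS7, whose rise was smaller in SKOV3 cells by 0.56 (difference -0.56 ± 0.108, adjusted p = 0.0342). This call was lost in 7 of the 11 fits that left out an array, those without MDA-MB-231 miR-365a-3p replicate 1 or 2, any MDA-MB-231 control, SKOV3 miR-365a-3p replicate 3 or SKOV3 control replicate 1. It was also lost with the deposited values (adjusted p = 0.0598), median centring (0.0556), cyclic loess (0.0716), the replicate block (0.179) and trend and robust moderation (0.183), so that it held in 6 of 18 alternatives.

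The other was RPL22L1, a paralog that can take the place of RPL22. In MDA-MB-231 cells it read 7.82, 7.71 and 7.74 with control and 8.11, 8.18 and 8.09 with miR-365a-3p, a rise of 0.37 ± 0.0393 (adjusted p = 0.000238). In SKOV3 cells it read 7.35 and 7.38 against 7.32, 7.42 and 7.40, all at the floor, with a difference of 0.01 (adjusted p = 0.932). The difference of the responses was -0.36 ± 0.0589 (adjusted p = 0.0175). It was -0.06 with the deposited values (adjusted p = 0.825), where the MDA-MB-231 difference was 0.05 (adjusted p = 0.637), and the call was also lost with median centring (adjusted p = 0.855), with the replicate block (adjusted p = 0.165) and without SKOV3 control replicate 1 (adjusted p = 0.0781) or 2 (adjusted p = 0.103).

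The third comparison set the control arrays of the lines side by side. It shares these arrays with the comparisons above, and cell line and any batch of arrays cannot be told apart. In the SKOV3 controls, 4 rows (4.6%, against 8.34% of all rows) were higher and 18 (20.7%, against 7.76%) were lower than in the MDA-MB-231 controls, with a median of -0.13. Shares among rows with a mean above 8 were not computed for this contrast, so these counts have no background of like signal. The count higher was 7 without MDA-MB-231 control replicate 1 and 2 without SKOV3 control replicate 1, and the count lower was 9 without SKOV3 control replicate 2.

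RPL17, a large subunit protein, was higher in SKOV3 controls by 1.26 ± 0.0882 (adjusted p = 2.43e-05), at 12.80 and 12.74 against 11.58, 11.63 and 11.31. RPS20 was higher by 1.01 ± 0.0884 (adjusted p = 8.78e-05), at 13.56 and 13.39 against 12.63, 12.37 and 12.42. RPS4X and RPL7 were higher by 0.80 ± 0.169 (adjusted p = 0.0115) and 0.75 ± 0.193 (adjusted p = 0.0299), calls that were lost without SKOV3 control replicate 1, for RPS4X also without control replicate 2, and for RPL7 also without MDA-MB-231 control replicate 1 or 3 and with the deposited values (adjusted p = 0.0674) or median centring (adjusted p = 0.073). With miR-365a-3p, RPL17 rose in MDA-MB-231 cells to 12.36, 12.28 and 12.33 (0.81, adjusted p = 0.000152) and RPS20 to 13.22, 13.09 and 13.05 (0.65, adjusted p = 0.000484). In SKOV3 cells they differed by 0.30 (adjusted p = 0.0562) and 0.12 (adjusted p = 0.504), and RPL17 was called higher there with the deposited values (0.51, adjusted p = 0.00984).

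RPL15 was the lowest of the SKOV3 control rows against MDA-MB-231, by -1.67 ± 0.132 (adjusted p = 4.94e-05), with 11.10 and 11.10 against 12.80, 12.59 and 12.91. RPS29, at 11.42 and 11.44 against 13.35, 12.43 and 12.82, was lower too (difference -1.44 ± 0.239, adjusted p = 0.00327). Both are mutated in some cases of Diamond-Blackfan anaemia. RPL14L differed by -1.03 ± 0.232 (adjusted p = 0.0156), a call that was lost without either SKOV3 control. RPL26 differed by -0.96 ± 0.149 (adjusted p = 0.0023), and RPL5 by -0.94 ± 0.107 (adjusted p = 0.000377), at 12.15 and 12.10 against 12.91, 13.21 and 13.08. The gap in RPL15 remained with miR-365a-3p, where its arrays read 11.51, 11.46 and 11.57 in SKOV3 cells and 12.78, 13.26 and 13.11 in MDA-MB-231 cells.

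**Figure D4:**
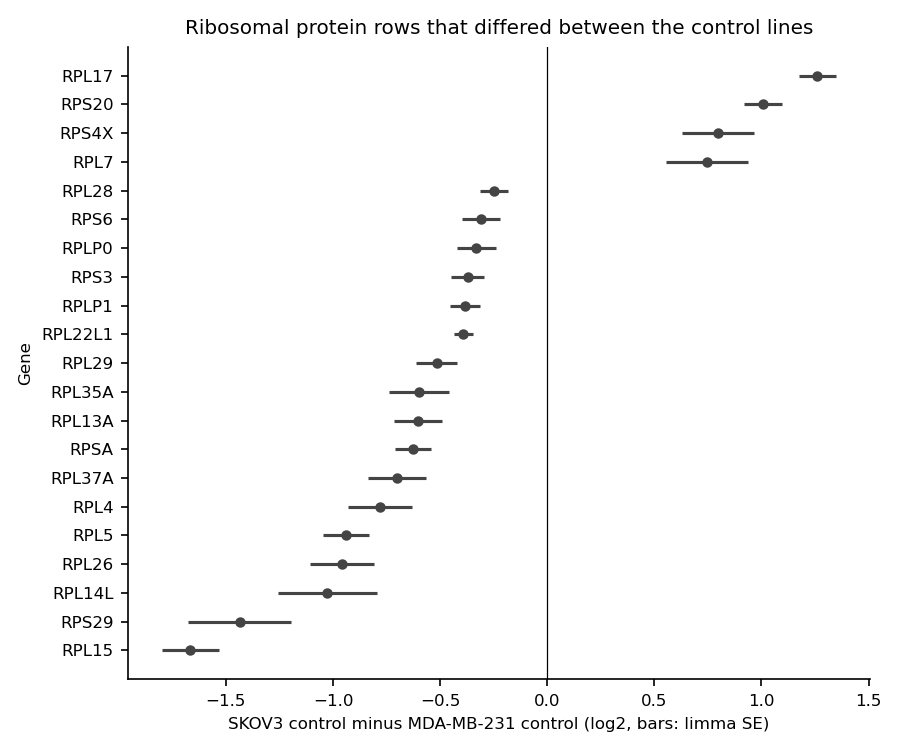
Log2 difference of SKOV3 control minus MDA-MB-231 control for 21 of the 22 ribosomal protein rows called between the control groups (the other is not shown), with limma standard errors as bars. RPL17 lies farthest to the right at 1.26 and RPL15 farthest to the left at -1.67.

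Other genes of the ribosome's production line were described from fixed lists. Of 60 genes of ribosome assembly and ribosomal RNA synthesis, 22 (36.7%) were higher and 16 (26.7%) lower in MDA-MB-231, and 17 (28.3%) higher and 5 (8.33%) lower in SKOV3 cells, with medians of 0.18 in both. The MDA-MB-231 shares lie above those of all rows, 14.4% and 11.7%, and near those of rows with a mean above 8, 39.0% and 26.2%. WDR12, of the PeBoW complex, rose by 1.21 (adjusted p = 6.12e-05) and 1.01 (adjusted p = 0.000594), and RIOK2, a kinase of late small subunit maturation, by 1.20 (adjusted p = 0.000248) and 1.05 (adjusted p = 0.00176). HEATR1, of the small subunit processome, fell, with differences of -1.51 (adjusted p = 7.01e-05) and -0.76 (adjusted p = 0.00769), and the helicase gene DDX51 fell, with -0.89 (adjusted p = 0.0152) and -1.75 (adjusted p = 0.00185). Genes of this list therefore moved both ways. With the deposited values the split in MDA-MB-231 cells was 16 higher and 22 lower, and the SKOV3 median was -0.0089.

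Among 15 regulators of ribosomal protein synthesis, 4 (26.7%) rose and 5 (33.3%) fell in MDA-MB-231, and 3 (20%) rose and 2 (13.3%) fell in SKOV3 cells, beside 14.4% and 11.7%, and 7.25% and 7.11%, of all rows. Of the 15, 9 had a mean above 8, where the shares of all rows were 39.0% and 26.2%, and 23.4% and 15.3%. With the deposited values 1 rose and 7 fell in MDA-MB-231, and 1 rose and 4 fell in SKOV3 cells. MYC, which drives ribosome production, fell, with differences of -1.44 (adjusted p = 7.81e-05) and -0.64 (adjusted p = 0.0145), and LARP1, which binds TOP tracts, fell, with -1.06 (adjusted p = 7.32e-05) and -0.82 (adjusted p = 0.000994). CNBP, which also binds TOP mRNAs, rose by 0.76 (adjusted p = 0.000308) and 0.65 (adjusted p = 0.0023). EIF4E, the cap-binding factor, rose by 0.54 (adjusted p = 0.00314) and 0.41 (adjusted p = 0.0347), calls lost with the deposited values (0.20 and 0.15, adjusted p = 0.0677 and 0.256). The medians of the list were -0.11 and 0.05, and the SKOV3 median was -0.08 with the deposited values and -0.04 with median centring.

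Other mRNAs known to begin with a TOP tract did not share one direction. Of 23 measured, 5 (21.7%) rose and 4 (17.4%) fell in MDA-MB-231, against 14.4% and 11.7% of all rows. In SKOV3 cells 2 (8.7%) rose and 3 (13%) fell, against 7.25% and 7.11%. Of the 23, 22 had a mean above 8. Of all such rows, 39.0% rose and 26.2% fell in MDA-MB-231, and 23.4% and 15.3% in SKOV3 cells, and the list lay below these shares. Bands of higher signal had smaller shares. From 12 to 13, 32.5% of all rows rose and 20.4% fell in MDA-MB-231, and 17.9% and 8.39% in SKOV3 cells. Above 13 it was 24.6% and 11.5%, and 8.46% and 4.62%. The list was not split by band. Its medians were -0.13 and -0.0045, which were 0.09 and 0.06 with the deposited values and 0.12 and 0.10 with median centring. PABPC1, the poly(A)-binding protein, fell, with differences of -3.42 (adjusted p = 4.52e-05) and -2.57 (adjusted p = 0.000718), and so did EIF3F, with -1.94 (adjusted p = 0.000262) and -1.95 (adjusted p = 0.000969). EIF4A2 rose by 0.38 (adjusted p = 0.00278) and 0.54 (adjusted p = 0.00177), but was not called with cyclic loess, where the differences were -0.04 (adjusted p = 0.866) and 0.36 (adjusted p = 0.0742). FAU, which encodes the ribosomal protein RPS30 fused to a ubiquitin-like part and lies outside the symbol rule, rose by 0.51 in MDA-MB-231 cells (adjusted p = 0.0129) and differed by 0.36 in SKOV3 cells (adjusted p = 0.127), and its call was lost with cyclic loess (adjusted p = 0.052).

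Within the ribosomal protein genes, the 47 with a tract at an annotated start had 19 higher (40.4%) and 2 lower (4.26%) in MDA-MB-231 and 12 higher (25.5%) and 2 lower (4.26%) in SKOV3 cells, with medians of 0.34 and 0.21. The 20 without had 5 higher (25%) and 2 lower (10%), and 3 higher (15%) and 1 lower (5%), with medians of 0.23 and 0.23. All rows had 14.4% and 11.7%, and 7.25% and 7.11%, and those with a mean above 8 had 39.0% and 26.2%, and 23.4% and 15.3%. RPL29, RPL34 and RPS21 are in the first set with RPL28 and RPS23, and RPS7, RPL26L1 and RPS27L are in the second with RPL7L1. Rises and falls thus occurred in both.

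The mitochondrial ribosome has its own proteins, which are encoded in the nucleus and share no subunit with the cytosolic one. Of 76 such genes, 60 (78.9%) were higher and 3 (3.95%) lower in MDA-MB-231, and 37 (48.7%) were higher and 1 (1.32%) lower in SKOV3 cells, with medians of 0.74 and 0.58. Of all rows 14.4% and 7.25% were higher in the 2 lines, and of rows with a mean above 8, 39.0% and 23.4%. The medians of the cytosolic rows were 0.25 and 0.21 on this scale, but the gap in MDA-MB-231 was small with the deposited values (0.59 for the mitochondrial and 0.56 for the cytosolic rows) and with median centring (0.63 and 0.59). In SKOV3 cells these pairs were 0.46 and 0.36, and 0.50 and 0.40. The difference between the lists was not tested. MRPS35 differed by 1.45 and 1.04 and MRPL1 by 1.36 and 1.39, and at the other end MRPS27 differed by -0.76 and -0.58. The median of the mitochondrial list lay between 0.59 and 0.74 in MDA-MB-231 and between 0.46 and 0.58 in SKOV3 cells under the 4 scalings, so it moved less with the scaling than that of the cytosolic rows.

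**Figure D5:**
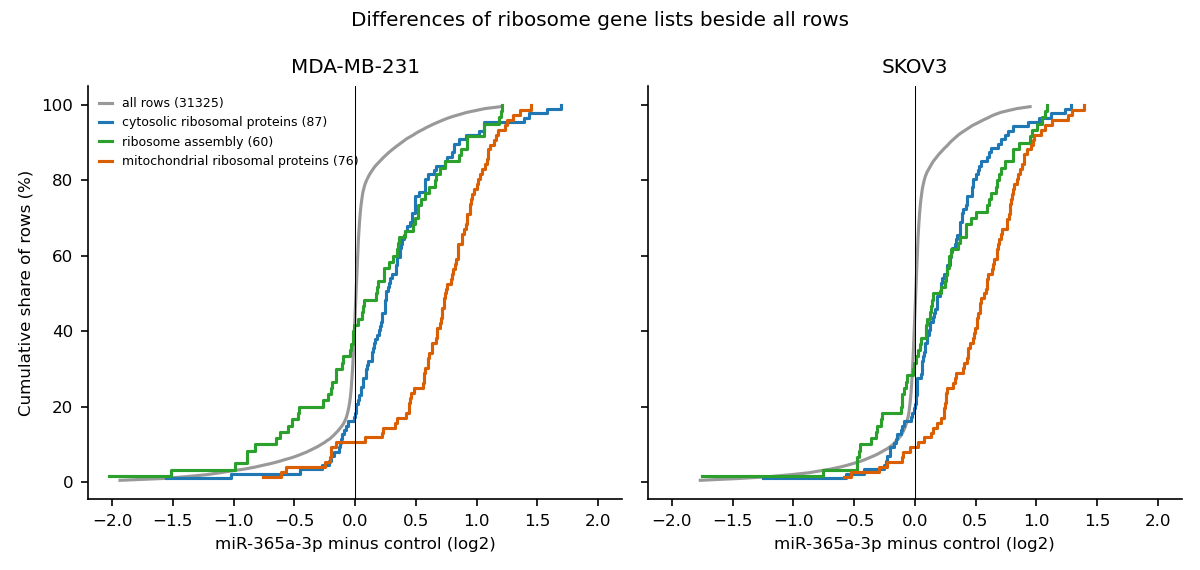
Cumulative share of rows (vertical axis, %) against the log2 difference of miR-365a-3p minus control (horizontal axis) for all 31325 rows, the 87 cytosolic ribosomal protein rows, 60 ribosome assembly genes and 76 mitochondrial ribosomal protein genes in each line. The cytosolic rows cross the middle of the vertical axis at 0.25 and 0.21 and the mitochondrial rows at 0.74 and 0.58, while the assembly genes extend farther to the left in MDA-MB-231 cells.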

How the data were processed

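Total RNA of 11 samples was labelled as biotinylated cRNA and hybridized in 1 colour to Illumina HumanHT-12 v4 BeadChips. Quantile normalization by the authors used lumi, and they deposited values that are read here as log2, 1 per gene symbol and array for 31325 symbols. Whether the transformation was log2 or a variance-stabilizing one, how probes of a gene were combined, and any background or detection filter are not given in the sources used here. Each log2 difference and each fold change carries this limit.

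The deposited columns did not share a distribution and were quantile normalized again with limma 3.58.1 in R 4.3.3. Each row was fitted with the means of the 4 groups, contrasts went through eBayes, and p-values were adjusted over all 31325 rows (Benjamini-Hochberg), with calls at an adjusted p under 0.05. Single genes were also tested by exact two-sided permutation of the treatment within lines (200 arrangements). MDA-MB-231 alone cannot give a permutation p below 0.1. The fit was also run on simulated data with independent noise in each row. These held no shifts of whole arrays, so they do not bear on the scaling of the arrays.

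The ribosomal protein rows and all gene lists were chosen with earlier results of these data known. The genes named are the 6 largest rises and 6 largest falls by the mean of both lines, the largest called differences of responses (up to 3 in each direction) and between controls (up to 5 in each direction), the stalk and paralog lists, and examples of the other lists. Others were named after their values were seen. The background among rows with a mean above 8 was chosen after seeing the data. Of the 87 symbols, 84 matched a current RefSeq symbol (GRCh38.p14) and 3 an older one. MTOR, of the list of regulators, and seed matches of the miRNA in mRNAs were not analysed here, and the values of some genes are not reported here. The alternatives were the deposited values, median centring, cyclic loess, a fit per cell line, replicate blocks, rows above the median mean, an intensity trend with robust moderation, array weights, and each array left out in turn, 19 in all. The number of arrays limits the precision, and no read depth applies.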

Additional observations from a re-analysis of the deposited data

Results flagged for a closer look

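The response to miR-365a-3p differed between the lines for 2 ribosomal protein genes by limma's test of the difference itself. For RPS7, the SKOV3 response minus the MDA-MB-231 response was -0.56 on the log2 scale (SE 0.108, adjusted p = 0.0342), with a rise in each line. Under the alternatives it lay between -0.68 and -0.43, and the call was lost in 12 of 18, 7 that left out an array and 5 others (adjusted p = 0.0556 to 0.183). For RPL22L1 the difference was -0.36 (SE 0.0589, adjusted p = 0.0175), with signals at the floor in SKOV3 cells, and it was -0.06 with the deposited values and with median centring, where the call was lost, as it was with the replicate block and without either SKOV3 control array.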

How the results depend on the processing

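The median difference of the 87 rows stayed above 0 in both lines under all 19 alternatives, and its size and the counts of calls depended on the scaling and on single arrays. For MDA-MB-231 called higher, SKOV3 called higher and both called higher, the counts were 32, 18 and 12 as reported, 53, 30 and 28 with the deposited values, and 53, 35 and 32 with median centring. Cyclic loess gave 8 higher in SKOV3, 7 higher in both and 8 lower in MDA-MB-231. Array weights gave 31 higher in SKOV3, where 12.7% of all rows were called higher, and 23 in both. The medians in MDA-MB-231 and SKOV3 were 0.56 and 0.36 with deposited values, 0.59 and 0.40 with median centring, and 0.15 and 0.048 with cyclic loess, and the control lines differed by a median of -0.23 with deposited values and -0.24 with median centring. The count of rows with a lower response in SKOV3, 2 as reported, was 0 with deposited values, median centring and the replicate block, 1 with trend and robust moderation, 4 among rows above the median mean and 5 with array weights. With each line fitted alone, SKOV3 had 1 row lower and both lines 0, and with trend and robust moderation each had 1. RPLP2 in MDA-MB-231, 0.0059 as reported, was called lower with cyclic loess (-0.60, adjusted p = 0.0334).

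With each array left out in turn, SKOV3 had 5 to 23 rows higher and 0 to 3 lower, both lines had 4 to 18 higher and 0 to 2 lower, and the response in SKOV3 was larger for 0 to 1 and smaller for 0 to 3 rows, with a median from -0.12 to -0.0095. The SKOV3 controls had 2 to 7 rows higher and 9 to 22 lower. Over all rows, 5.75% to 8.49% were called higher in SKOV3 in the fits that kept both SKOV3 controls, and fewer without either. The labels do not say that a replicate number marks a shared culture or day. Deviations of same-numbered arrays from their group means correlated at -0.12, 0.04 and 0.23 in MDA-MB-231 and 0.04 and -0.07 in SKOV3 over 6853 rows, and at 0.26, 0.20 and 0.45, and 0.09 and -0.21, over the 87 rows. Whether the MDA-MB-231 arrays are paired was not settled. A replicate block gave 30 rows higher and 5 lower in MDA-MB-231, 13 and 4 in SKOV3, 12 and 3 in both, and 0 and 0 for the difference of the responses. Of all rows it called 12.1% higher in MDA-MB-231 and 5.05% in SKOV3. Of 40 named values that were called, 23 kept their call throughout, and of 37 that were not, 16 were called under some alternative. Causes were not tested. Genes outside the 87 rows that the text names with values were recomputed under the other scalings only, and the pseudogene rows were not. Signals near the median of all rows, 7.38, limit what can be read for RPL10, RPL10L, RPL37, RPL3L and RPL28.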

Other observations

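Rows named as ribosomal protein pseudogenes were outside the rule, and several of them moved with miR-365a-3p. RPS10P3 rose by 1.26 (adjusted p = 0.000872) in MDA-MB-231 cells and 0.73 (adjusted p = 0.0375) in SKOV3 cells, and RPS6P1 rose by 0.60 (adjusted p = 0.000545) and 0.33 (adjusted p = 0.0326). RPL23AP13 rose by 1.11 in MDA-MB-231 cells (adjusted p = 0.00484) and differed by 0.59 in SKOV3 cells (adjusted p = 0.163). RPL29P2 rose by 0.51 in MDA-MB-231 cells (adjusted p = 0.015), beside the 1.69 of RPL29, and differed by 0.13 in SKOV3 cells (adjusted p = 0.713). RPL31P11, RPL32P3 and RPLP0P2 lay at the floor in all groups and were not called. All adjusted p-values are from limma. Whether probes of these rows also bind mRNA of the parent genes was not tested.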
